A study of Mus musculus with 3 samples.

Results

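The RIG-I receptor signaling chain was followed through 10 genes: the RNA receptors Ddx58 (also written Rigi), Ifih1 and Dhx58, the ubiquitin ligase Trim25, the adaptors Mavs and Tmem173 (also written Sting1), the kinases Tbk1 and Ikbke, and the transcription factors Irf3 and Irf7. The choice was made with earlier results of these data known. The genes were taken by name, through their NCBI Gene IDs, and not by a cutoff on their values. They are 10 of the 16742 genes listed in any of the 3 libraries of the study, and each was listed in every library.

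The study expressed TBLR1-RARα (TR), a fusion protein of acute promyelocytic leukemia, in mouse bone marrow from a retrovirus that carries GFP on the same transcript. RNA-seq was run on 3 libraries, each a pool of 3 C57BL/6 mice whose labelled age was 6-8 weeks. The Control library held lin- bone marrow cells (cells left after removal of mature lineages) of wild-type mice, and the TR1 and TR9 libraries held GFP+ bone marrow cells with the genotype TBLR1-RARa. Per the methods, the TR mice were the third generation of leukemia mice, TR1 and TR9 each trace back to a single primary mouse, and control and leukemia cells were isolated in different ways. With 1 library per condition, no difference below has a replicate check: each compares libraries, not conditions.

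In this pathway, cytosolic RNA is bound by RIG-I (Ddx58) or MDA5 (Ifih1), while LGP2 (Dhx58) lacks the signaling domains and modulates the other receptors. Activated RIG-I, which TRIM25 can ubiquitinate, assembles MAVS on mitochondria, and MAVS recruits the kinases TBK1 and IKKε (Ikbke), which phosphorylate IRF3 and IRF7 to switch on type I interferon genes. STING (Tmem173) serves the cytosolic DNA sensor cGAS and feeds into the same kinases, and several chain genes, among them Ddx58, Ifih1, Dhx58 and Irf7, are themselves interferon-inducible.

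Promoter windows from RefSeq (GRCm38.p6, 250 bases before to 50 bases after the annotated start) were searched on both strands. Windows of 8 of the 10 genes were searched: none was matched for Dhx58, and that of Tmem173 was not read. The core of the interferon-stimulated response element (ISRE), GAAANNGAAA, was found in 2 of these 8, Ddx58 and Ifih1, and in 3.44% of all 32851 windows of the table. A match is a description of the letters only. In Ddx58 it lies on the strand opposite to the gene at bases 3 to 12 counted from 1 at the start, and in Ifih1 on the gene's own strand at bases 33 to 42. The windows of the receptors are shown because Ddx58 and Ifih1 encode the main RNA receptors and share this motif. That of Mavs was picked by its values, as the chain gene furthest below Control in both leukemias. It holds no match, and neither do the windows of Trim25, Tbk1, Ikbke, Irf3 and Irf7. The windows shown cover chr4:40239776-40240075 (minus strand) for Ddx58, chr2:62646206-62646505 (minus strand) for Ifih1 and chr2:131233813-131234112 (plus strand) for Mavs. Each runs 5′ to 3′ along the gene, from upstream sequence into the first transcribed bases, and capitals mark the ISRE core.
Ddx58: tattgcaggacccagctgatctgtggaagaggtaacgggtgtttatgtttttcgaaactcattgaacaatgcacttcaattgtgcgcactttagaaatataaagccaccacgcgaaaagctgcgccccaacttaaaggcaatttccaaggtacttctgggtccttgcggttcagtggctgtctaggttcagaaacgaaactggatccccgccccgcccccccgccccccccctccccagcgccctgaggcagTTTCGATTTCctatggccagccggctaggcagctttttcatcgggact
Ifih1: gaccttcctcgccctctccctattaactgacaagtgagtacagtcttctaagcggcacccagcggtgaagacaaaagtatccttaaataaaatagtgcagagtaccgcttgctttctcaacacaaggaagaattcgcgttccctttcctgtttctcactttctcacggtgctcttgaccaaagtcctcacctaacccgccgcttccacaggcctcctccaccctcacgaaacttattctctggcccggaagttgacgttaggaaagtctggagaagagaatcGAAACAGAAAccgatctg
Mavs: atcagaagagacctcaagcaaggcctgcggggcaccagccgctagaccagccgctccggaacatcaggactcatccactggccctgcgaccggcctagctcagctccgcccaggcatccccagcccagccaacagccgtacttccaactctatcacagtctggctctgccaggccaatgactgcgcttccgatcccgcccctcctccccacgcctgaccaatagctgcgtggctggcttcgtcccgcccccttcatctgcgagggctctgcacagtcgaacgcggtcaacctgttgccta
An NF-kB site was present in 4.51% of all windows and a retinoic acid response element of 2 direct repeats spaced by 5 bases in 0.0974%. Neither was found in the windows of the 8 genes. Among 21 interferon-stimulated genes with a window, 12 (57.1%) held the ISRE core. Counted by gene in the same way, 3.99% of all 27025 genes with a window held it.

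Levels are given in FPKM, a fragment count scaled by transcript length and by library total, so that genes can be compared with each other. Expected counts are the reads that RSEM assigned to a gene. Libraries summed to between 5129662 and 5571409 such counts. Intervals are exact 95% Poisson or Clopper-Pearson intervals and cover counting error only. Rara, the mouse gene that corresponds to the RARα part of the fusion, was at 3.36 FPKM in Control, 66.1 in TR1 and 22.0 in TR9. Both libraries labelled TBLR1-RARa were thus above Control. Tbl1xr1, the mouse gene that corresponds to the TBLR1 part, differed far less, at 18.9, 25.8 and 23.2 FPKM. The paper describes the fusion as found in patients, whereas reads were set against a mouse genome. How many reads of the fusion were counted in either mouse gene was not tested. Summed over lists of 10 markers, granulocyte genes were at 4189, 42513 and 32051 FPKM in Control, TR1 and TR9, erythroid and megakaryocyte genes at 2741, 6.34 and 9.48, stem and progenitor genes at 277, 104 and 165, and 9 listed B and T cell genes at 16.4, 2.79 and 3.71. In TR1 and TR9, 5 and 4 of the 10 erythroid and megakaryocyte markers were at 0. The stem and progenitor genes did not move together. Most of their sum in TR9 was Kit (73.5, 29.1 and 62.6 FPKM in Control, TR1 and TR9) and Ly6a (9.49, 26.9 and 87.6). Flt3 was highest in TR1 (16.2, 38.4 and 6.65), whereas Cd34 was far lower in both leukemias (75.8, 5.80 and 4.34). In such bulk samples, fewer cells of a type and less RNA per cell cannot be told apart, and the part of cell makeup in the results below was not tested.

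**Figure D1:**
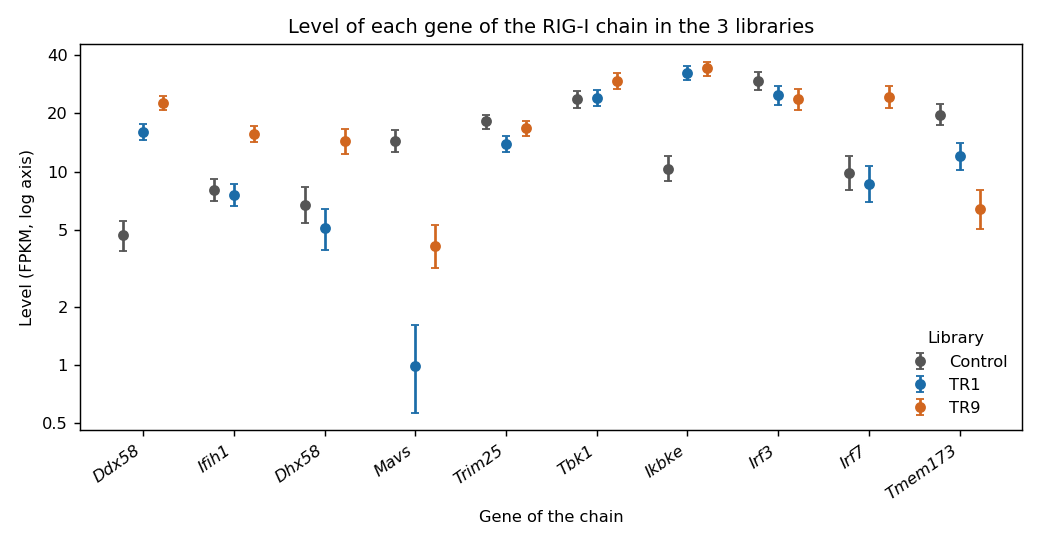
Level of each chain gene in FPKM (log axis) in the Control, TR1 and TR9 libraries, with exact 95% Poisson intervals of the count, counting error only. Mavs in TR1 (0.99 FPKM) is the lowest point, and Ikbke is the highest gene of the chain in both TR1 and TR9.

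The chain as a whole was a set of moderately expressed genes whose order differed between the libraries. In Control, levels ran from 4.69 FPKM for Ddx58 to 29.5 FPKM for Irf3. Irf3 stood above its neighbor Tbk1, and from Ikbke downwards each gene overlapped the next (Ikbke, Irf7, Ifih1, Dhx58, Ddx58). In TR1, Ikbke (32.3 FPKM) led the chain above Irf3 and Tbk1, which overlapped each other, and Mavs (0.99 FPKM) was last, clear of Dhx58. In TR9, the top 5 genes Ikbke, Tbk1, Irf7, Irf3 and Ddx58 each overlapped the next in order, and Tmem173 and Mavs overlapped at the bottom. Over the 10 genes the summed level was 145 FPKM in Control, 145 in TR1 and 191 in TR9.

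A gene was called when the exact Poisson test of its counts passed a false discovery rate of 0.001 and its FPKM differed by at least 1 on the log2 scale, the thresholds of the study's methods. TR1 against Control had 2 chain genes called higher (Ddx58, Ikbke), 1 called lower (Mavs) and 7 not called, where 8.09% of 16282 genes tested were called higher and 13.0% lower. TR9 against Control had 4 called higher (Ddx58, Dhx58, Ikbke, Irf7), 2 lower (Mavs, Tmem173) and 4 not called, against 9.37% and 10.8% of 16303 genes. Among genes with at least 50 counts in either library of a pair, the shares called higher and lower were 11.4% and 16.8% in TR1 against Control, 12.9% and 14.3% in TR9 against Control, and 5.71% and 3.31% in TR9 against TR1. The comparisons of TR1 and of TR9 with Control use the same Control library. Compared directly, TR9 had 4 chain genes called higher than TR1 (Ifih1, Dhx58, Mavs, Irf7) and 0 lower, against 4.34% and 2.31% of 15706 genes. The median log2 ratio of the 10 genes was −0.22 in TR1 against Control, 0.64 in TR9 against Control and 0.39 in TR9 against TR1, beside −0.29, −0.12 and 0.13 over all genes tested. TMM scaling, which sets the bulk of genes level, would add 0.25, 0.11 and −0.13 to every ratio of these comparisons, and a common FPKM sum (TPM) −0.23, −0.11 and 0.12. TMM would bring the chain median in TR1 against Control above 0.

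**Figure D2:**
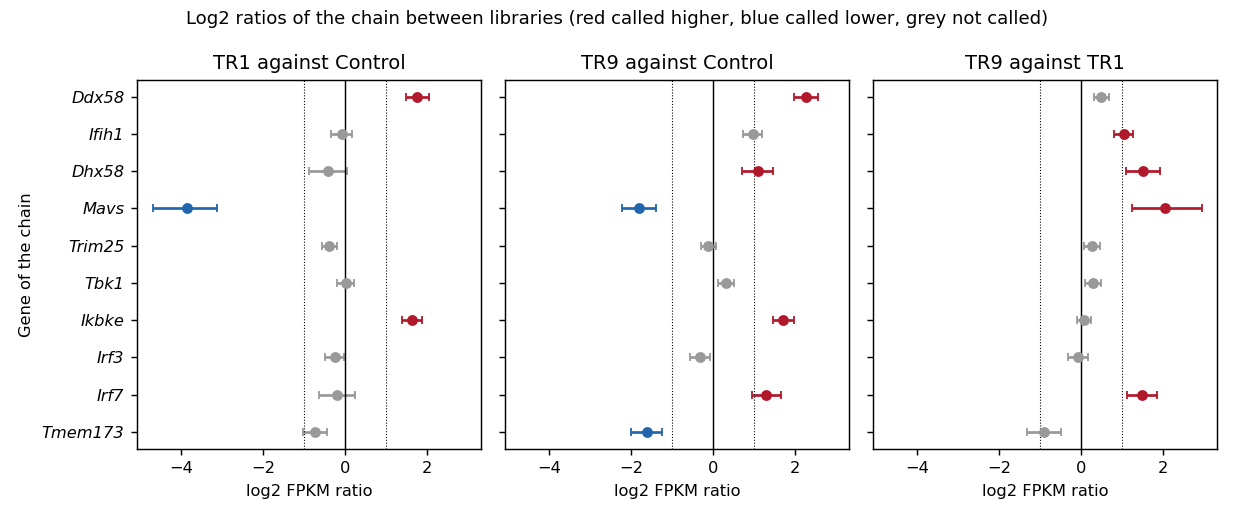
Log2 FPKM ratio of each chain gene in TR1 against Control, TR9 against Control and TR9 against TR1, with 95% Clopper-Pearson intervals (counting error only). Dotted lines mark the threshold of 1 on either side of 0, and points are red where called higher, blue where called lower and grey where not called. Mavs is furthest below 0 in both comparisons with Control (−3.86 and −1.80).

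Among the receptors, Ddx58 was higher in both leukemias. It was at 4.69 FPKM in Control (128.35 expected counts), 15.97 in TR1 (445) and 22.5 in TR9 (576.62), and these 3 levels did not overlap. The log2 ratio against Control was 1.77 in TR1 (1.48 to 2.07) and 2.26 in TR9 (1.99 to 2.56), the latter a 4.80-fold difference. Between TR9 and TR1 it was 0.50 (0.32 to 0.68), under the threshold. Ddx58 counts were not whole in 2 libraries, which means that RSEM split reads between it and other genes.

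Ifih1 set the leukemias apart. The MDA5 gene was at 8.04 FPKM in Control (246 counts), 7.61 in TR1 (237) and 15.7 in TR9 (450), so TR1 overlapped Control and TR9 lay above both. Its log2 ratio was −0.08 in TR1 against Control (−0.34 to 0.18), 0.97 in TR9 against Control (0.74 to 1.20) and 1.05 in TR9 against TR1 (0.82 to 1.28), and only the last was called. These values lie at the threshold: with TMM scaling Ifih1 was called in TR9 against Control (1.07) and lost its call in TR9 against TR1 (0.91).

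Dhx58, the LGP2 gene, had the same order of libraries. It was at 6.75 FPKM in Control (90 counts), 5.08 in TR1 (69) and 14.4 in TR9 (180), with Control and TR1 overlapping and TR9 above them. The log2 ratio was −0.41 in TR1 against Control (−0.88 to 0.06), which was not called, and 1.10 in TR9 against Control (0.72 to 1.48) and 1.51 in TR9 against TR1 (1.10 to 1.93), which were. The call against Control was lost with TPM scaling and with a pseudocount of 1 FPKM (0.99 in each). In GENCODE M21 (GRCm38), 141 exon bases of Dhx58 (4.31%) overlap the antisense gene Dhx58os, and use of strand in the counting was not stated.

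The receptors' summed level was 19.5 FPKM in Control, 28.7 in TR1 and 52.7 in TR9, with a different makeup in each. Ddx58 gave 24.1% of this sum in Control, 55.7% in TR1 and 42.8% in TR9, whereas Ifih1 gave 41.3%, 26.6% and 29.9%. Within a library, the ratio of Ddx58 to Ifih1 was 0.583 in Control, 2.10 in TR1 and 1.43 in TR9. Such a ratio does not depend on how libraries are scaled. It differed from Control by 1.85 on the log2 scale in TR1 (1.45 to 2.24) and by 1.30 in TR9 (0.93 to 1.66), and it was lower in TR9 than in TR1, by −0.55 (−0.85 to −0.26). The ratio of Dhx58 to Ddx58 ran the other way, from 1.44 in Control to 0.318 in TR1 and 0.641 in TR9.

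**Figure D3:**
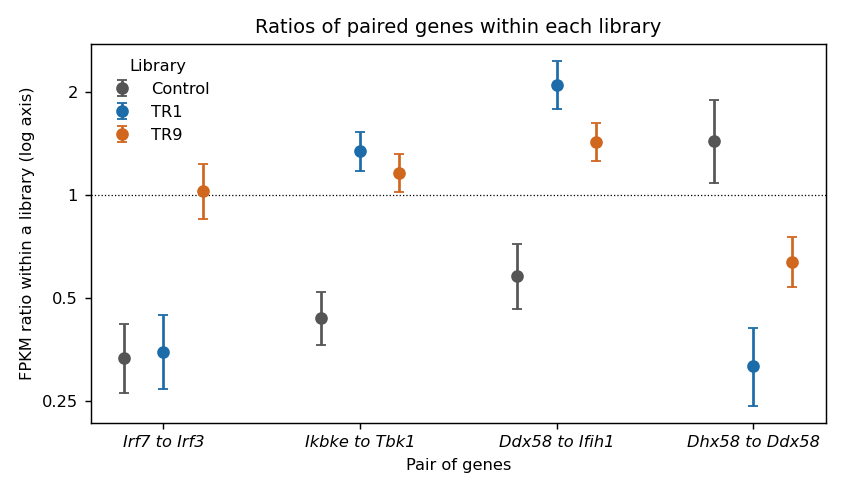
FPKM ratio of 4 gene pairs within each library (log axis), with 95% exact intervals that cover counting error only. The Ikbke to Tbk1 and Ddx58 to Ifih1 ratios are above 1 in TR1 and TR9 and below 1 in Control, and the Irf7 to Irf3 ratio stands apart in TR9 (1.03).

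Trim25, the ubiquitin ligase for RIG-I, was called in no comparison. It was at 18.2 FPKM in Control (562.99 counts), 13.9 in TR1 (439.02) and 16.8 in TR9 (486.74). TR1 lay below Control and TR9, whose intervals overlapped. The log2 ratio was −0.38 in TR1 against Control (−0.57 to −0.20), −0.11 in TR9 against Control (−0.29 to 0.06) and 0.27 in TR9 against TR1 (0.08 to 0.46). Its counts were not whole in any of the 3 libraries.

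Mavs, the mitochondrial adaptor on which both RNA receptors converge, showed the largest difference of the chain. It was at 14.4 FPKM in Control (230 counts), 0.99 in TR1 (16) and 4.12 in TR9 (63), and no pair of libraries overlapped. The log2 ratio was −3.86 in TR1 (−4.69 to −3.13), which is 14.5-fold lower than Control (8.74 to 25.8), and −1.80 in TR9 (−2.23 to −1.39), 3.49-fold lower. TR9 was in turn above TR1 by 2.06 (1.25 to 2.95), the widest interval of the chain, since TR1 rests on 16 counts. The transcript length RSEM used for Mavs was 2906 bases in Control, 2871 in TR1 and 2964 in TR9, so length hardly entered these ratios. No exon of another annotated gene overlaps Mavs in GENCODE M21.

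Tmem173, the STING gene, was also lower in the leukemias, in the order Control, TR1, TR9. It was at 19.7 FPKM (249 counts), 12.0 (154) and 6.42 (76), without overlap. The log2 ratio against Control was −0.72 in TR1 (−1.02 to −0.42), not called, and −1.62 in TR9 (−2.01 to −1.24), called, 3.07-fold lower. In TR9 against TR1 it was −0.90 (−1.31 to −0.49), not called here but called lower with TMM scaling (−1.03). Of the leukemias, TR1 had the lower Mavs level and TR9 the lower Tmem173 level.

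The kinases differed in how far they moved. Tbk1 was called in no comparison, at 23.6 FPKM in Control (395 counts), 24.0 in TR1 (408) and 29.4 in TR9 (459). TR1 overlapped Control, and TR9 lay just above both. Its log2 ratio was 0.02 in TR1 against Control (−0.18 to 0.22), 0.31 in TR9 against Control (0.11 to 0.51) and 0.29 in TR9 against TR1 (0.10 to 0.49).

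Ikbke, the inducible relative of Tbk1, was at 10.4 FPKM in Control (183 counts), 32.3 in TR1 (580) and 34.1 in TR9 (564). The leukemias overlapped each other and both lay above Control. The log2 ratio against Control was 1.64 in TR1 (1.40 to 1.89) and 1.72 in TR9 (1.48 to 1.97), or 3.11-fold and 3.29-fold, and both were called. Between TR9 and TR1 it was 0.08 (−0.09 to 0.25), so that a difference of more than 0.25 between these libraries lies outside the counting interval. Within a library, the ratio of Ikbke to Tbk1 was 0.438 in Control, 1.34 in TR1 and 1.16 in TR9. This scale-free ratio differed from Control by 1.62 on the log2 scale in TR1 (1.30 to 1.94) and 1.41 in TR9 (1.09 to 1.73). In GENCODE M21, 1.76% and 0.721% of the exon bases of Ikbke overlap antisense genes.

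The transcription factors parted in TR9. Irf3, which cells hold as a latent factor, was called in no comparison, at 29.5 FPKM in Control (335 counts), 24.8 in TR1 (284) and 23.7 in TR9 (252). All 3 libraries overlapped each other. Its log2 ratio against Control was −0.25 in TR1 (−0.48 to −0.02) and −0.32 in TR9 (−0.56 to −0.08).

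Irf7, the interferon-inducible factor that amplifies the response, was at 9.87 FPKM in Control (99 counts), 8.66 in TR1 (86) and 24.3 in TR9 (228). Control and TR1 overlapped, and TR9 was above both. The log2 ratio was −0.19 in TR1 against Control (−0.62 to 0.24), not called, and 1.30 in TR9 against Control (0.95 to 1.66) and 1.49 in TR9 against TR1 (1.12 to 1.86), both called. The ratio of Irf7 to Irf3 was 0.334 in Control, 0.349 in TR1 and 1.03 in TR9, a difference between TR9 and TR1 of 1.56 on the log2 scale (1.11 to 2.01). Irf7 and Irf3 share 1.19% and 2.56% of their exon bases with genes on the opposite strand (Phrf1 and Bcl2l12).

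Plasmacytoid dendritic cells hold much Irf7, so their markers were read beside it. Of 10 markers 9 were listed, and their summed level was 53.6 FPKM in Control, 80.3 in TR1 and 84.8 in TR9. Most of this sum was Bst2 and Runx2, which other cells also express. Of the 9 markers, 2 were at 0 in TR1 (Siglech, Ly6d) and 2 in TR9 (Ccr9, Ly6d). Siglech had 7, 0 and 2 counts in Control, TR1 and TR9, and Ly6d had 5, 0 and 0. Tcf4, a transcription factor of these cells that other cells also express, had 349.78, 134.77 and 284.89 counts and was, like Irf7, called higher in TR9 than in TR1 (log2 ratio 1.21), though not in TR9 against Control (−0.19). The part of such cells in the Irf7 result was not tested. Summed monocyte and macrophage markers were at 146, 241 and 109 FPKM, lowest in TR9.

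Among the interferon regulatory factors (IRFs) described here, Irf7 alone was called higher in TR9 than in both other libraries. Including Irf3 and Irf7, 8 IRF genes were read, and in TR1 against Control 0 were called higher and 3 lower (Irf4, Irf5, Irf8), where 8.09% and 13.0% of all genes were. In TR9 against Control 2 were higher (Irf1, Irf7) and 2 lower (Irf4, Irf5), against 9.37% and 10.8% of all genes. In TR9 against TR1 2 of 7 tested were higher (Irf7, Irf8) and 0 lower, against 4.34% and 2.31%. Irf8, a factor of monocyte and dendritic cell development, was at 68.0 FPKM in Control, 2.46 in TR1 and 44.2 in TR9, so that TR1 stood far below the other libraries. Irf5 was at 6.23, 1.14 and 2.38 FPKM. Irf4 had 16 counts in Control and 0 in both leukemias. Set against the floor of 3 counts per library, it was at least 5.41-fold lower than Control in TR1, and in TR9 the bound was 4.98-fold. Irf1 was at 10.4, 13.7 and 21.5 FPKM, with log2 ratios against Control of 0.40 in TR1 and 1.05 in TR9. Irf2 (22.2 to 25.5 FPKM) and Irf9 (21.01 to 27.9 FPKM) were called in no comparison.

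**Figure D4:**
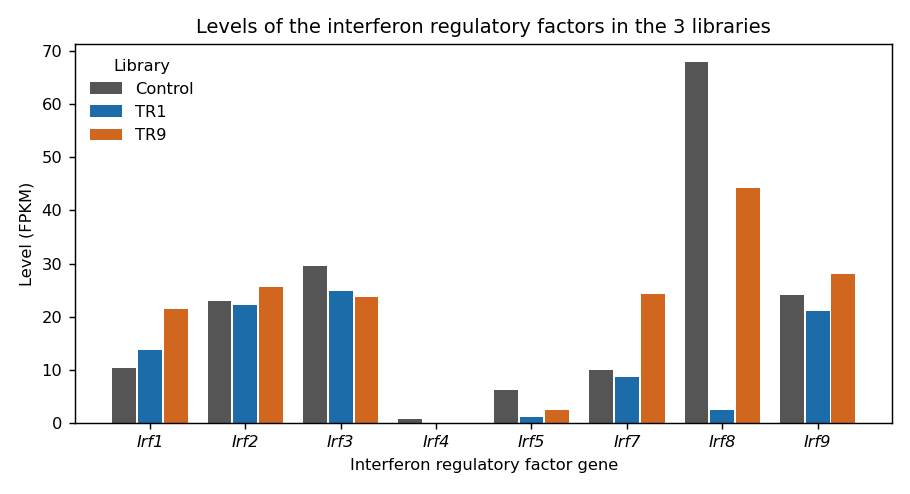
Level in FPKM (linear axis from 0) of 8 IRF genes in the Control, TR1 and TR9 libraries, 1 bar per library, with no replicate and no error bar. Irf7 is tallest in TR9 (24.3 FPKM), Irf3 differs little between libraries, and Irf8 is near 0 in TR1 (2.46 FPKM).

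Genes around the chain were described by lists, chosen for their role. Of 22 regulators of the RNA receptors, 4 were called higher and 0 lower in TR1 against Control, and 4 higher and 1 lower in TR9 against Control. Over all genes tested, 8.09% were called higher and 13.0% lower in the first comparison and 9.37% and 10.8% in the second. The median log2 ratios of the regulators were −0.16 and −0.14, beside −0.29 and −0.12 over all genes. Ddx60, a helicase reported to assist RIG-I, had counts of 41, 179 and 181 (Control, TR1, TR9), with log2 ratios against Control of 2.10 and 2.24. Rnf125, a ubiquitin ligase that marks RIG-I for degradation, had 134, 294 and 439 (1.11 and 1.81). Atg12, whose conjugate with Atg5 binds RIG-I and MAVS, had 395, 1120 and 1648 (1.48 and 2.16). The genes called higher therefore include both a helper of the receptor and a ligase that lowers it. Nlrx1, a mitochondrial protein known to bind MAVS, was named after its values were seen: it had 145, 445 and 110 counts, and was higher in TR1 than in Control (1.61) and lower in TR9 than in TR1 (−1.92).

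Of 22 further adaptors and kinases between MAVS or STING and the IRFs, 1 was called higher and 3 lower in TR1 against Control, and 1 higher and 4 lower in TR9 against Control, with medians of −0.44 and −0.26, beside −0.29 and −0.12 over all genes. These counts are near the shares of all genes (8.09% higher and 13.0% lower in TR1, 9.37% and 10.8% in TR9), or of genes with at least 50 counts (11.4% and 16.8%, 12.9% and 14.3%), and are no result about the list. Tbkbp1, an adaptor that binds TBK1 and IKKε, had counts of 39, 332 and 288 (log2 ratios 3.07 and 2.98). Optn, the TBK1-binding autophagy receptor optineurin, had 454, 55 and 144 (−3.07 and −1.56), and like Mavs it was lowest in TR1. The other list gene furthest from 0 was Irf5, given above. Of 15 genes of cytosolic DNA sensing, 2 were higher and 2 lower in TR1 against Control, and 2 higher and 3 lower in TR9, with medians of 0.01 and −0.16. These counts too are near the shares of genes with at least 50 counts given above. Zbp1, a sensor of Z-form nucleic acids, had 9, 55 and 112 counts (2.08 and 3.44). Ifi204 and Mndal, neighbors in the same gene family, took opposite directions, with log2 ratios of 1.09 and 2.05 for Ifi204 and −1.69 and −1.95 for Mndal. Mndal counts were not whole in any library and Ifi204 counts not in Control and TR9, so RSEM split some of their reads with other genes.

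**Figure D5:**
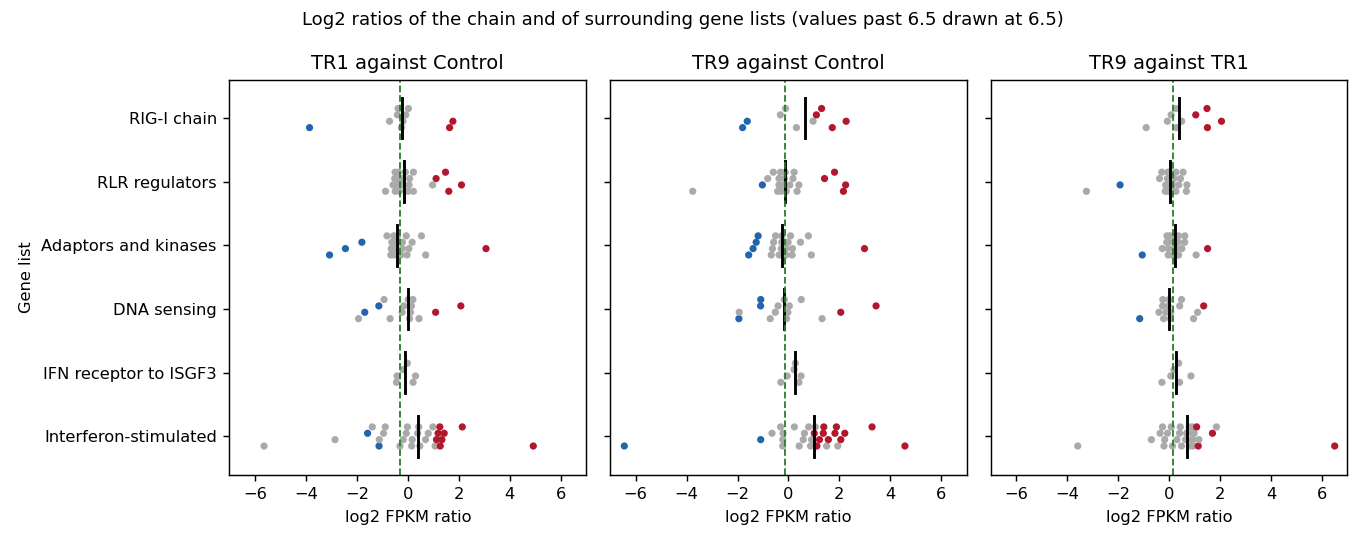
Log2 FPKM ratios of the chain and of 5 surrounding gene lists in the 3 comparisons, 1 point per gene (red called higher, blue called lower, grey not called), with the list median as a black bar and the median of all genes tested as a green dashed line. Values past 6.5 are drawn at 6.5. The median of the interferon-stimulated list lies to the right of the dashed line in each panel (0.39, 1.01 and 0.69).

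Downstream of the chain, none of 18 type I and III interferon genes was listed in any library. A gene that the authors did not quantify would be unlisted as well. At the depth of these libraries a count of 0 allows up to 3 counts, or 0.538 to 0.585 ppm of a library. From the interferon receptor to the ISGF3 complex, 6 genes were read, and 0 of them were called in any of the 3 comparisons. They were the receptor genes Ifnar1 (15.3 to 18.5 FPKM over the libraries) and Ifnar2 (40.9 to 50.4), their kinases Jak1 (48.3 to 64.8) and Tyk2 (12.6 to 22.8), and the ISGF3 genes Stat2 (13.3 to 18.8) and Irf9.

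Of 29 interferon-stimulated genes, 8 were called higher and 2 lower in TR1 against Control, 12 higher and 2 lower in TR9 against Control, and 4 higher and 0 lower in TR9 against TR1. Over all genes tested, 8.09% were called higher and 13.0% lower in the first of these comparisons, 9.37% and 10.8% in the second and 4.34% and 2.31% in the third. The medians of the list were 0.39, 1.01 and 0.69, beside −0.29, −0.12 and 0.13 over all genes, and setting the genes with 3 counts or fewer in a library at their bounds left these values as they were. Oas2, an RNA-activated synthetase, had counts of 25, 773 and 557 (log2 ratios 4.92 and 4.57). Oasl2 had 65, 291 and 591 (2.14 and 3.28), and Rtp4 57, 140 and 247 (1.27 and 2.21). Oasl2 and Rtp4 had the library order of Ddx58, with TR9 highest, and Oas2 did not.

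By likeness in the pair of log2 ratios against Control, over 3 libraries and 10186 genes with at least 50 counts in a library, the nearest genes to Ddx58 were Adgrg3, Pkd2 and Ankrd28, at distances of 0.00889 to 0.0459 on the log2 scale. The nearest to Ikbke were Lpgat1 (counts of 379, 1194 and 1164 in Control, TR1 and TR9), Morrbid (21.59, 44.61 and 55.18) and Itpripl2 (210, 664 and 640), at 0.0119 to 0.0159. Morrbid rests on few counts, and these differ less from Control than its FPKM does. Mavs had no neighbor as close: its nearest were Lrrc8c (counts of 354, 22 and 85), Pear1 (138, 9 and 44) and Pros1 (148, 13 and 42), at 0.236 to 0.339. Both ratios share the Control library, and the distances are smaller than the counting intervals of the ratios. For Mavs in TR1 against Control that interval was −4.69 to −3.13, so the order of neighbors is not resolved. Fewer genes may lie near ratios as far from 0 as those of Mavs, so its larger distances do not mark it as unusual.

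The spread between mice is not known from these libraries, and calls depend on what is assumed for it. With edgeR's exact test at an assumed biological coefficient of variation of 0.2, Ddx58 and Mavs kept their calls in TR1 against Control and Ddx58 and Ikbke in TR9 against Control, and no chain gene was called in TR9 against TR1. At 0.4 no chain gene was called in any comparison. Shares of all genes called under this test are not given here, so these calls are not set against them.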

How the data were processed

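RNA-seq of 3 libraries (Control, TR1, TR9) was analysed. Reads were cleaned, aligned (BWA, Bowtie) and quantified (RSEM) by the authors. The submitters' processing notes name mm9, and versions were not given in the sources used here. The authors deposited, per gene, the expected count, an estimated read number that need not be whole (19.9% to 21.2% of listed genes), and the FPKM, scaled by length and library total. The deposited gene length was used for Mavs only. A gene not listed was taken as 0. Of 16742 Gene IDs, 16698 were named in the RefSeq table of GRCm38.p6, used for names.

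After rounding, counts of a pair of libraries entered a conditional exact Poisson test (scipy 1.17.1), Benjamini-Hochberg adjusted over all genes listed in either library, with FPKM under 0.01 set to 0.01. Calls needed a false discovery rate of 0.001 or less and a log2 FPKM ratio of 1 or more in size. No p-value is printed, since there was 1 library per group. Library sums of 5129662 to 5571409 make 3 counts, the floor used, equal to 0.538 to 0.585 ppm. The steps were run on simulated Poisson counts with set changes. These hold no spread between mice, so the simulation cannot show how the calls fare under such spread. Alternatives were TMM (edgeR 4.0.16), the median of ratios (DESeq2 1.42.0), TPM scaling, other pseudocounts and filters, a false discovery rate of 0.05, and edgeR's exact test at an assumed biological coefficient of variation of 0.2 or 0.4. Python 3.11.15 and R 4.3.3 were used.

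The 10 genes and the gene lists were chosen with earlier results of these data known. The text names every chain gene, the up to 3 genes of each pathway list furthest from Control among those with a like call in TR1 and TR9, the listed genes of the IRF list and of the list from interferon receptor to ISGF3, and the 3 genes nearest to each chain gene with a like call in both. Cell type markers are given as sums, and those named among them were chosen after their values were seen. Some genes of these lists are not reported here.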

Additional observations from a re-analysis of the deposited data

Results flagged for a closer look

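The TR9 and TR1 libraries differed in 4 genes of the chain by the exact Poisson test, which compares these pools and not the lines. Over all 15706 genes tested, 4.34% were called higher in TR9 and 2.31% lower. Among genes with at least 50 counts in either library, 5.71% were called higher and 3.31% lower. Mavs was higher in TR9, with a log2 FPKM ratio of 2.06, and rests on 16 counts in TR1 and 63 in TR9. Dhx58 was higher in TR9 by 1.51 and Irf7 by 1.49. Ifih1 was higher by 1.05 and lost its call under TMM scaling, the median of ratios and a pseudocount of 1 FPKM. With edgeR's exact test at an assumed biological coefficient of variation of 0.2, none of these 4 differences was called.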

How the results depend on the processing

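Each setting was changed alone. The 3 other scalings turned the sign of ratios close to 0. In TR1 against Control, Ifih1 became 0.17 with TMM and 0.16 with the median of ratios, Irf7 0.060 and 0.047, and Tbk1 −0.20 with TPM. In TR9 against TR1, Ikbke became −0.051 with TMM and −0.038 with the median of ratios, and Irf3 0.049 with TPM. With TMM and with the median of ratios, 1 chain gene (Tmem173) was called lower in TR9 against TR1. With TMM, 7 pathway genes were called lower in TR9 against Control, where library totals gave 11, and with TPM 12 were called higher in TR9 against TR1, in place of 7. The edgeR exact test lowered most counts, because it was given a larger spread. At an assumed coefficient of 0.2, the higher and lower calls were 1 and 1 chain genes and 5 and 4 pathway genes in TR1 against Control, 2 and 0 and then 11 and 1 in TR9 against Control, and 0 and 0 and then 2 and 0 in TR9 against TR1. At 0.4 no chain gene was called, and the pathway calls were 1 and 1, 1 and 0, and 0 and 0. Shares of all genes called under the changed settings are not given here. The counts therefore show only how calls depend on the setting, and are no result about the chain or the lists. The other settings for these counts kept them within 1.5 times. No paired analysis was possible because each condition has 1 library and the labels give no replicate numbers.

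The limits are 1 pooled library per condition, a Control isolated by lineage depletion against leukemia cells sorted for GFP, and a depth at which Mavs has 16 counts in TR1.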
